A study of Mus musculus with 4 samples.

Results

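The genes described here are 46 mouse genes of mitosis and the spindle, chosen by name as genes of the G2 and M phases that can serve as a measure of dividing cells. All 46 were found among the 23418 gene symbols of the count table, and all 46 passed the filter on low counts that left 13075 genes for testing. Bulk RNA sequencing had been carried out on B cells sorted from cervical lymph nodes of NOD.B10 mice and of control BL/10 mice, with 2 libraries per strain and no treatment named in the labels. NOD.B10 mice have the autoimmune-prone NOD background with the H2 region replaced by that of a B10 strain, and they model Sjögren's disease. Age, sex and the number of animals behind each library were not stated in the labels, so the p-values reflect only how far these libraries differ, which may be technical. The strains differ across the genome, so no difference below can be assigned to a particular locus.

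Cells that divide switch on a shared set of genes late in the cycle, whose products build the spindle, attach it to the chromosomes, delay the separation of chromosomes until all are attached, and cut the cell apart. In resting cells these genes are kept off by the DREAM complex, and in G2 they are activated by MuvB together with B-MYB and then FOXM1, acting through a short promoter element called the cell cycle genes homology region (CHR) and often through neighbouring CCAAT boxes bound by NF-Y. Most B cells of an unstimulated lymph node are resting, and dividing B cells are found mainly in germinal centres and among plasmablasts.

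The promoters of the members are shown because the members share these elements although they were chosen by function and not by sequence. RefSeq promoter sequences on GRCm38.p6, each running from 250 bases before to 50 bases after a gene start, were available for 38 members as 40 promoters; Ccna2, Aurkb, Incenp, Kif20a, Tpx2, Stmn1, Smc4 and Foxm1 had no entry. The CHR was searched as TTTGAA, which reads as TTCAAA along the other strand, and as TTCGAA, which is the same along either strand. The CCAAT box was searched as CCAAT, which appears as ATTGG along the other strand, and overlapping matches were allowed. A CHR stood in 31 of 40 member promoters (77.5%), against 19.2% of all 32851 promoters and 14.2% of the 12098 promoters of tested genes. A CCAAT box stood in 30 of 40 (75%), against 37.4% of all promoters and 37.7% of those of tested genes. Both elements stood together in 27 of 40 (67.5%), against 7.52% of all promoters and 5.72% of those of tested genes. Members called lower in NOD.B10 and members not called held a CHR about equally often, in 16 of 21 and in 15 of 19 promoters. A match describes the letters only and does not show a bound site.

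The sequences below are those of the 4 called members with the smallest p and the 2 members with the largest p among those with an entry, written 5′ to 3′ along the gene in lower case with every CCAAT box and CHR in capitals. The Top2a promoter held 6 CCAAT boxes and 4 CHR matches, the Hmgb2 promoter 4 and 2, and the Nusap1 promoter 0 of either.
Top2a promoter, chr11:99024140-99024439, minus strand: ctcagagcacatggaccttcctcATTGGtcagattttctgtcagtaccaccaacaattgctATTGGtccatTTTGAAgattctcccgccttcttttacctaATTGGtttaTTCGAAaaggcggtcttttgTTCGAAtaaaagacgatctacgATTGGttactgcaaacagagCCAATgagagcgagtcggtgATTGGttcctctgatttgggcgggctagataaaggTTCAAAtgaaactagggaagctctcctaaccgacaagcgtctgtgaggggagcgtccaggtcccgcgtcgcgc
Bub1b promoter, chr2:118597961-118598260, plus strand: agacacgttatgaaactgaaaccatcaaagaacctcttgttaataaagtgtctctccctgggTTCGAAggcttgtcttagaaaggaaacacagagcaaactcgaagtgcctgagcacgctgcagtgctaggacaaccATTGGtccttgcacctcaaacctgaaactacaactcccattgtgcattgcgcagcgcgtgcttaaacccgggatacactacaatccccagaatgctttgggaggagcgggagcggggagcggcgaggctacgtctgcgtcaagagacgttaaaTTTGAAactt
Nusap1 promoter, chr2:119618048-119618347, plus strand: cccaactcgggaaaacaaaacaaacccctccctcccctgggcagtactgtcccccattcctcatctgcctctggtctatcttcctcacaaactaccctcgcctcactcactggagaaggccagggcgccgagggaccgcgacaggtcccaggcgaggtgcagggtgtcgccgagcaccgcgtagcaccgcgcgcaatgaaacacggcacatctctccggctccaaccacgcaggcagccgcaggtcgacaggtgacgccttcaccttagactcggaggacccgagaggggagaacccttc
Kif11 promoter, chr19:37376132-37376431, plus strand: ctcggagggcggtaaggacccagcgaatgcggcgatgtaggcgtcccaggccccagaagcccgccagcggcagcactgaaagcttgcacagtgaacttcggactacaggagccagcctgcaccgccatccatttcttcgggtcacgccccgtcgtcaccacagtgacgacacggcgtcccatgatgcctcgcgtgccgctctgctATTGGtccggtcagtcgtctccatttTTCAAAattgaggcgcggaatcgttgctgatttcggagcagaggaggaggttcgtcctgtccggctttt
Smc2 promoter, chr4:52438971-52439270, plus strand: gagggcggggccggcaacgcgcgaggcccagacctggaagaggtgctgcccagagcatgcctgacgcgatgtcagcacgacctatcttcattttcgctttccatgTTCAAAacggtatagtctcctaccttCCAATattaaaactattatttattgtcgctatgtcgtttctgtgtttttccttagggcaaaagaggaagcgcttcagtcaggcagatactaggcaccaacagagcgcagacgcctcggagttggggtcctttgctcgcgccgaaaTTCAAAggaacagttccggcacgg
Hmgb2 promoter, chr8:57511593-57511892, plus strand: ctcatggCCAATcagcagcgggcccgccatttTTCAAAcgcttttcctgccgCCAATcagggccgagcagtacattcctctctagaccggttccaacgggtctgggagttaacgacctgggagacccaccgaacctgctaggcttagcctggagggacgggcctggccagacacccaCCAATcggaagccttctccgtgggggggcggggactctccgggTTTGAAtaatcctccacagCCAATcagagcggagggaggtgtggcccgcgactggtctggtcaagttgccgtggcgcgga

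Mitosis and spindle genes had lower RNA levels in the NOD.B10 libraries as a group. Of the 46 members, 26 fell (56.5%), 0 rose and 20 were not called, by the quasi-likelihood test of edgeR with Benjamini-Hochberg adjustment over all 13075 genes and a threshold of 0.05. Over all genes tested, 8.63% were called lower and 6.55% were called higher. At an unadjusted p under 0.05, 31 members were lower and 0 higher, and the share of all genes at that threshold was not computed. DESeq2 called 25 members lower and 0 higher, and 8.68% of all genes tested lower. The median log2 fold change, NOD.B10 over BL/10, was −1.28 over the members and −0.0032 over all genes tested. The middle of the range ran from −1.98 to −0.60, and 44 of 46 members had a negative value.

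Levels are given as reads per 1000000 (CPM) over library sizes scaled by TMM, a normalisation that assumes most genes do not differ. Summed over the members, they came to 428 and 384 CPM in NOD.B10, against 640.0 and 719 CPM in BL/10. Smc4 alone supplied much of that sum, and without it the members came to 288 and 234 CPM in NOD.B10, against 427 and 486 CPM in BL/10. Both NOD.B10 libraries lay below both BL/10 libraries in the sum, with and without Smc4. For single genes, the libraries did not overlap, with NOD.B10 lower, in 39 of 46 members (84.8%), against 27.7% of all genes tested. They did not overlap with NOD.B10 higher in 1 member, Melk, against 27.9% of all genes tested. Relative to the mean of BL/10, the median member stood at −1.11 on the log2 scale in the first NOD.B10 library and at −1.32 in the second. In bulk RNA, fewer dividing cells, whether B cells or other cells in the libraries, and less of these transcripts per dividing cell cannot be told apart.

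**Figure D1:**
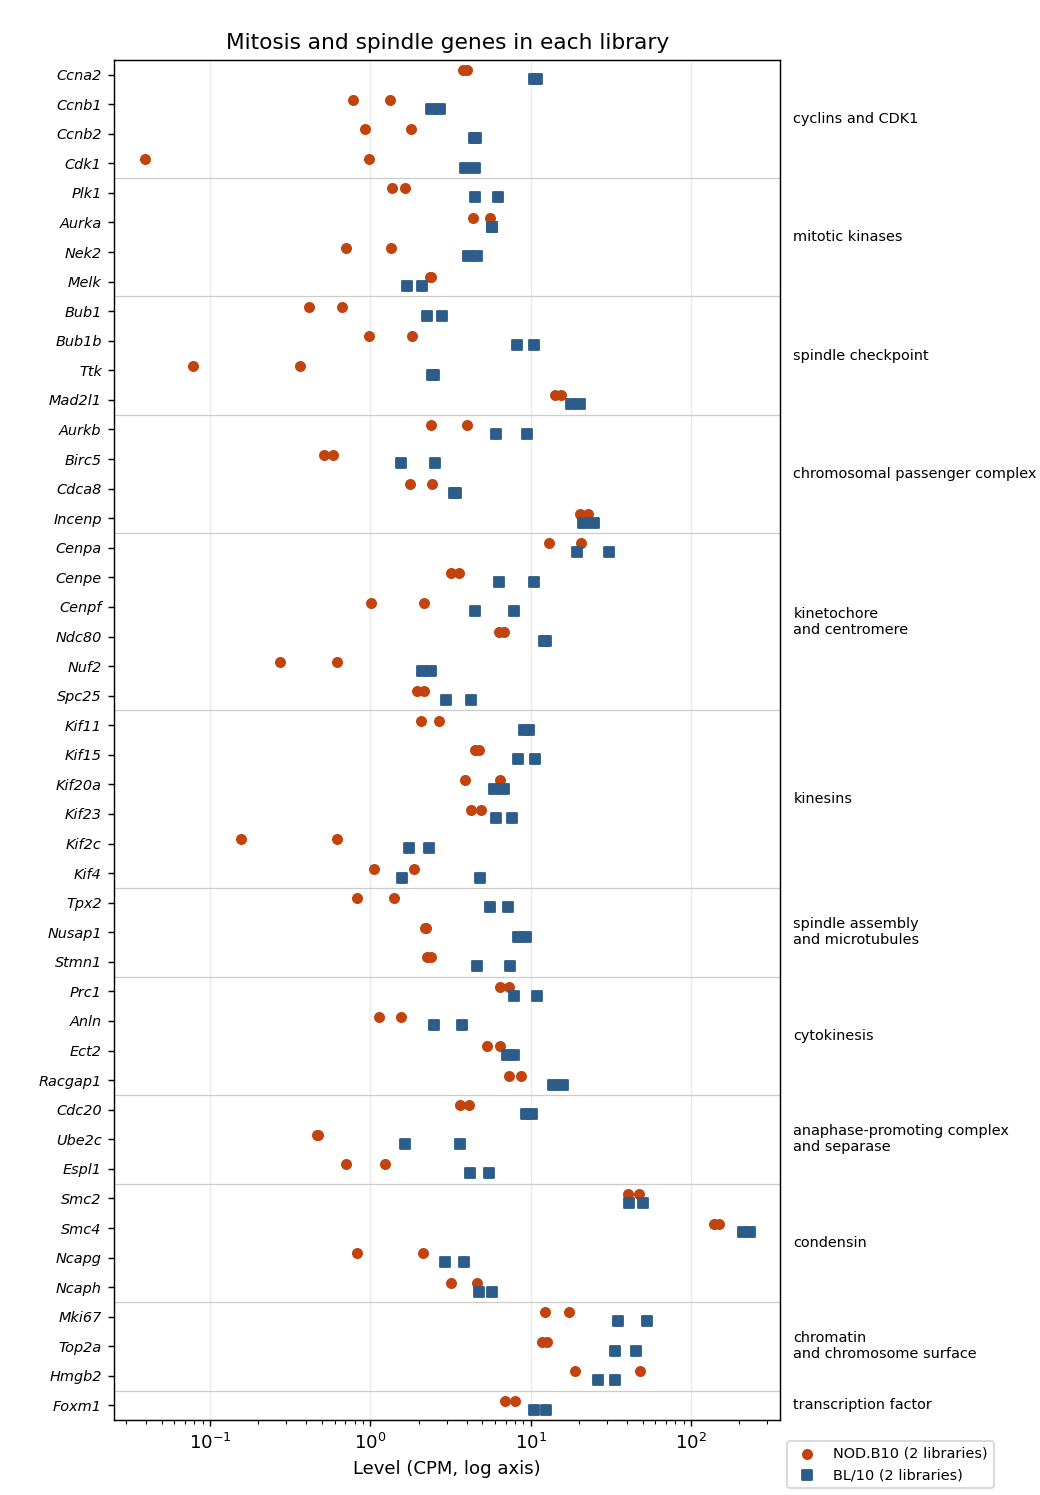
Level of each of the 46 genes in each library (CPM, log axis), grouped by role, with circles for the 2 NOD.B10 libraries and squares for the 2 BL/10 libraries. In 39 rows both circles lie left of both squares; Melk is the row where both lie right, and the circles of Cdk1 and Hmgb2 lie far apart.

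Libraries held 19328803 and 25375678 reads in NOD.B10 and 29372751 and 26150794 reads in BL/10, of which members took 0.0428% and 0.0386% in NOD.B10 and 0.0645% and 0.0709% in BL/10. These are few reads per gene, between 9 for Ttk and 6546 for Smc4 over both NOD.B10 libraries, and their number limits the precision for the rarest members. B cell markers were high in all libraries, with 0 of 12 called and sums of 10030.0 and 10550.0 CPM in NOD.B10, against 9445 and 9475 CPM in BL/10. Some markers of other cells moved with the members, most widely those of T cells and natural killer cells, while the remaining lists were mixed. Of 20 T cell markers 19 were called lower (median log2 fold change −5.18), with sums of 231 and 218 CPM in NOD.B10, against 766 and 889.5 CPM in BL/10, and none was at 0 in both NOD.B10 libraries. Cd2 made up most of the NOD.B10 sum, with 166 and 153 CPM in NOD.B10, against 202 and 209 CPM in BL/10. Its log2 fold change of −0.37 was far smaller than the list median, so the sums differ less than most single markers. Cd3e stood at 1.24 and 0.313 CPM in NOD.B10, against 43.0 and 59.4 CPM in BL/10. Of 6 tested natural killer cell markers 6 were called lower, and sums over all 8 were 2.85 and 3.92 CPM in NOD.B10, against 15.2 and 27.2 CPM in BL/10, with Klrk1, Klrd1 and Gzma at 0 reads in NOD.B10. Of 6 tested erythroid markers 3 were called lower. Log2 fold changes were negative for 4 of them and positive for 2, Klf1 (0.06) and Epor (0.87). Sums over 8 erythroid genes were 11.7 and 6.34 CPM in NOD.B10, against 242 and 477 CPM in BL/10, and Slc4a1 had 0 reads in NOD.B10. Of 8 plasma cell markers 2 were called lower, with sums of 698 and 620.4 CPM in NOD.B10, against 1317 and 680.0 CPM in BL/10. Jchain of plasma cells had 271 and 184 reads in NOD.B10, against 18012 and 3066 reads in BL/10. Log2 fold changes were negative for 5 of the 8 plasma cell markers and positive for 3, Xbp1 (0.04), Irf4 (0.09) and Mzb1 (0.04). Of the other marker lists, 2 of 9 macrophage markers and 3 of 7 genes listed for dendritic cells were called lower. The 3 were Itgax, Siglech and Klk1, of which Klk1 encodes a kallikrein and is not a marker of dendritic cells. Of 3 tested precursor lymphocyte markers 0 were called, but Rag1 had 0 reads in both NOD.B10 libraries, against 2578 and 56 reads in BL/10, and Dntt had 0 reads in both NOD.B10 libraries, against 313 and 16 reads in BL/10. These 2 genes were thus detected in BL/10 alone, and mostly in its first library. The third tested marker, Vpreb3, was near level, with 887 and 923 reads in NOD.B10, against 992 and 1386 reads in BL/10 (log2 fold change −0.09). Of the untested markers, Rag2, Vpreb1 and Ptcra had reads in BL/10 alone, and Igll1 had 5 and 0 reads in NOD.B10, against 0 in BL/10. With BL/10 replicate 1 dropped, the median log2 fold change of the members was −1.30, against −1.28 with all libraries. The BL/10 library that remained still held T cell and erythroid transcripts, so dropping the other does not isolate precursor cells. Of 3 tested stromal markers 0 were called lower and Pdgfrb was called higher, with 29 and 18 reads in NOD.B10, against 0 and 2 reads in BL/10. The part of these cells in the lower levels of the members was not tested.

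Cyclins and their kinase drive entry into mitosis. Ccna2 (chromosome 3, 36564865 to 36573038), which encodes cyclin A2 of S and G2 phase, had 3.99 and 3.80 CPM in the NOD.B10 libraries, against 10.4 and 10.9 CPM in the BL/10 libraries. Each pair of libraries was close together and the strains lay well apart (2.74-fold lower, adjusted p = 0.00169, log2 fold change −1.45 with SE 0.256). Ccnb2, a B-type cyclin that activates CDK1, had 0.933 and 1.80 CPM in the NOD.B10 libraries, against 4.56 and 4.42 CPM in the BL/10 libraries, and fell 3.23-fold (adjusted p = 0.0145, log2 fold change −1.69 with SE 0.420), a call that was lost with BL/10 replicate 1 dropped (adjusted p = 0.0548). Where a library is dropped, here and in what follows, its strain is left with 1 library, which is assumed to vary like the 2 libraries of the other strain, so such p-values carry no measure of spread within the reduced strain. Its relative Ccnb1 had 0.777 and 1.33 CPM in the NOD.B10 libraries, against 2.40 and 2.71 CPM in the BL/10 libraries, without overlap, but was not called (log2 fold change −1.26, adjusted p = 0.111) except with NOD.B10 replicate 2 dropped (adjusted p = 0.0426). Cdk1, the kinase itself, had 19 reads in the first NOD.B10 library and 1 in the second, against 133 and 100 reads in the BL/10 libraries. It was the member with the widest gap between replicates on the log scale, and its log2 fold change of −3.12 (SE 0.905) missed the threshold (adjusted p = 0.0739). Cdk1 was called lower in 6 of the 12 alternatives: with NOD.B10 replicate 1 dropped (adjusted p = 2.31e-12, where the only NOD.B10 value is 1 read), with NOD.B10 replicate 2 dropped (adjusted p = 0.00132, log2 fold change −2.08), with no filter on low counts (adjusted p = 8.80e-08), limma-voom (adjusted p = 0.0130), non-robust dispersion (adjusted p = 0.0240) and the replicate block (adjusted p = 0.0251).

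Among the mitotic kinases, Plk1, which acts at centrosomes, kinetochores and in cytokinesis, had 1.66 and 1.37 CPM in the NOD.B10 libraries, against 4.53 and 6.28 CPM in the BL/10 libraries. It was 3.57-fold lower (adjusted p = 0.00491, log2 fold change −1.84 with SE 0.378). Nek2, a centrosome kinase, fell 4.31-fold (log2 fold change −2.11, adjusted p = 0.00590). Aurka, which activates PLK1 and matures the spindle poles, had 5.55 and 4.35 CPM in the NOD.B10 libraries, against 5.71 and 5.78 CPM in the BL/10 libraries and was not called (adjusted p = 0.707, log2 fold change −0.22 with SE 0.294). Melk, a kinase that peaks in mitosis, stood at 2.38 and 2.35 CPM in the NOD.B10 libraries, against 1.69 and 2.09 CPM in the BL/10 libraries, the highest fold change of the members and not called (adjusted p = 0.708, log2 fold change 0.32 with SE 0.437).

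The spindle checkpoint delays anaphase until kinetochores are attached, and it held the 2 called members with the lowest fold changes. Bub1b (chromosome 2, 118598202 to 118641592), which encodes the checkpoint protein BUBR1, had 1.81 and 0.979 CPM in the NOD.B10 libraries, against 10.4 and 8.22 CPM in the BL/10 libraries. Its levels were 6.78-fold lower (adjusted p = 1.49e-04, log2 fold change −2.76 with SE 0.361). Ttk, the kinase that starts the checkpoint signal, had 7 and 2 reads in NOD.B10, against 72 and 64 reads in BL/10. It had the lowest fold change of all members, −3.53 (SE 0.702, adjusted p = 0.00377), which rests on 9 NOD.B10 reads. Bub1, a scaffold at kinetochores, fell 4.58-fold (log2 fold change −2.19, adjusted p = 0.0140), a call lost with BL/10 replicate 2 dropped (adjusted p = 0.0927). Mad2l1, which encodes the checkpoint effector MAD2, had 14.1 and 15.4 CPM in the NOD.B10 libraries, against 17.9 and 20.4 CPM in the BL/10 libraries. The libraries of the strains did not overlap, but the small difference was not called (adjusted p = 0.213, log2 fold change −0.37 with SE 0.181).

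The chromosomal passenger complex corrects faulty attachments and guides cytokinesis. Aurkb, its kinase, had 3.99 and 2.39 CPM in the NOD.B10 libraries, against 9.53 and 6.09 CPM in the BL/10 libraries and fell 2.47-fold (adjusted p = 0.0221, log2 fold change −1.30 with SE 0.347), a call lost with NOD.B10 replicate 2 dropped (adjusted p = 0.0575) or BL/10 replicate 1 dropped (adjusted p = 0.203). Birc5, which encodes survivin, fell 3.64-fold (log2 fold change −1.86, adjusted p = 0.0438), the called member closest to the threshold. Its call was lost in 7 of the 12 alternatives: with DESeq2 (adjusted p = 0.0739), limma-voom (adjusted p = 0.0783), non-robust dispersion (adjusted p = 0.0505) and the replicate block (adjusted p = 0.0756), with NOD.B10 replicate 1 dropped (adjusted p = 0.0588) and with BL/10 replicate 1 or 2 dropped (adjusted p = 0.0809 and 0.331). Cdca8, which encodes borealin, was not called (log2 fold change −0.70, adjusted p = 0.293). Incenp, the scaffold that holds the complex together, had 22.6 and 20.3 CPM in the NOD.B10 libraries, against 21.4 and 24.7 CPM in the BL/10 libraries, with overlap between the strains (adjusted p = 0.773, log2 fold change −0.10 with SE 0.168).

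Kinetochore genes encode the proteins that join chromosomes to microtubules. Ndc80 (chromosome 17, 71496100 to 71526857), whose product binds microtubules directly, had 6.79 and 6.38 CPM in the NOD.B10 libraries, against 12.2 and 12.5 CPM in the BL/10 libraries. Replicates were close and the fall was 1.87-fold (adjusted p = 0.0144, log2 fold change −0.91 with SE 0.224). Its partner Nuf2 fell 5.10-fold (log2 fold change −2.35, adjusted p = 0.0169), a call lost with BL/10 replicate 1 or 2 dropped (adjusted p = 0.0678 and 0.0889). Spc25 of the same complex was not called (log2 fold change −0.80, adjusted p = 0.221). Cenpe, a kinetochore motor, and Cenpf, a large protein of the outer kinetochore, fell 2.46-fold and 3.92-fold (adjusted p = 0.0135 and 0.00945), and both calls were lost with BL/10 replicate 2 dropped (adjusted p = 0.157 and 0.0591). Cenpa, the histone H3 variant of centromeres, had 20.6 and 13.0 CPM in the NOD.B10 libraries, against 30.7 and 19.5 CPM in the BL/10 libraries. The strains overlapped and Cenpa was not called (adjusted p = 0.243, log2 fold change −0.59 with SE 0.283), although it was called lower with NOD.B10 replicate 1 dropped (adjusted p = 0.00117), with BL/10 replicate 2 dropped (adjusted p = 0.0108), with no filter on low counts (adjusted p = 0.0124) and with the replicate block (adjusted p = 0.0405).

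Kinesins are motors that move along microtubules. Kif11 (chromosome 19, 37376382 to 37421863), the motor that pushes the spindle poles apart, had 2.69 and 2.08 CPM in the NOD.B10 libraries, against 9.05 and 9.81 CPM in the BL/10 libraries, a fall of 3.97-fold (adjusted p = 4.48e-04, log2 fold change −1.99 with SE 0.297). Kif15, which acts with Kif11, had 4.51 and 4.78 CPM in the NOD.B10 libraries, against 10.6 and 8.34 CPM in the BL/10 libraries and fell 2.04-fold (adjusted p = 0.0178, log2 fold change −1.03 with SE 0.265), a call lost with BL/10 replicate 1 dropped (adjusted p = 0.154). Kif2c, which depolymerises microtubules at centromeres, fell 5.41-fold on 16 NOD.B10 reads (log2 fold change −2.43, adjusted p = 0.0278). That call was lost with NOD.B10 replicate 2 dropped (adjusted p = 0.0799) and with BL/10 replicate 1 or 2 dropped (adjusted p = 0.0628 and 0.134). The motors of the central spindle, Kif20a, Kif23 and Kif4, were not called, with log2 fold changes of −0.31, −0.60 and −1.14. The BL/10 libraries differed for Kif4, with 47 reads in the first and 125 in the second, and with BL/10 replicate 1 or NOD.B10 replicate 1 dropped Kif4 was called lower (adjusted p = 0.0358 and 0.0271).

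All 3 members grouped here under spindle assembly and microtubules fell. Members grouped under other roles also act there, such as Kif11 and Kif2c, which were called, and Aurka and Prc1, which were not. Nusap1, which bundles microtubules near chromosomes, had 2.23 and 2.19 CPM in the NOD.B10 libraries, against 8.31 and 9.42 CPM in the BL/10 libraries. It was 4.003-fold lower (adjusted p = 4.41e-04, log2 fold change −2.001 with SE 0.299), with replicates close together in both strains. Tpx2, which activates Aurora A and seeds microtubules, had 1.40 and 0.823 CPM in the NOD.B10 libraries, against 5.61 and 7.21 CPM in the BL/10 libraries, a fall of 5.83-fold (adjusted p = 6.32e-04, log2 fold change −2.54 with SE 0.396). Stmn1, which encodes the tubulin-binding protein stathmin, had 2.38 and 2.27 CPM in the NOD.B10 libraries, against 4.66 and 7.44 CPM in the BL/10 libraries. Its fall of 2.60-fold (adjusted p = 0.0177, log2 fold change −1.38 with SE 0.354) lost its call with BL/10 replicate 2 dropped (adjusted p = 0.182).

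Cytokinesis genes were called less widely, with 1 of 4 lower. Racgap1, a subunit of centralspindlin, had 7.36 and 8.73 CPM in the NOD.B10 libraries, against 15.9 and 13.7 CPM in the BL/10 libraries. It fell 1.84-fold (adjusted p = 0.0143, log2 fold change −0.88 with SE 0.217), a call lost with BL/10 replicate 1 dropped (adjusted p = 0.0743). Prc1, which bundles the central spindle, had 7.31 and 6.46 CPM in the NOD.B10 libraries, against 7.84 and 10.9 CPM in the BL/10 libraries, without overlap but not called (adjusted p = 0.309, log2 fold change −0.44 with SE 0.258). Anln, which encodes anillin, and Ect2, which activates RhoA at the cleavage site, were not called either, with log2 fold changes of −1.21 and −0.35 (adjusted p = 0.0980 and 0.466). A test of whether the roles differ from each other was not made.

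The 3 members that trigger anaphase all fell. Cdc20, the activator of the anaphase-promoting complex, had 3.63 and 4.11 CPM in the NOD.B10 libraries, against 10.3 and 9.30 CPM in the BL/10 libraries, 2.52-fold lower (adjusted p = 0.00395, log2 fold change −1.33 with SE 0.265). Espl1, which encodes separase, the protease that opens cohesin, had 1.24 and 0.705 CPM in the NOD.B10 libraries, against 5.47 and 4.19 CPM in the BL/10 libraries and was 5.02-fold lower (adjusted p = 0.00256, log2 fold change −2.33 with SE 0.436). Ube2c, the ubiquitin-conjugating enzyme of the complex, had 9 and 12 reads in NOD.B10, against 49 and 93 reads in BL/10. Its fall of 5.55-fold (log2 fold change −2.47, adjusted p = 0.0118) lost its call with BL/10 replicate 2 dropped (adjusted p = 0.215) and with limma-voom (adjusted p = 0.0502).

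Condensin compacts chromosomes, and of its 4 genes listed here 1 was called lower, although all had negative log2 fold changes. Smc4 (chromosome 3, 69004738 to 69034623), an ATPase subunit, had 140.1 and 150.5 CPM in the NOD.B10 libraries, against 213 and 233 CPM in the BL/10 libraries. The difference was modest and well outside the replicate spread (1.53-fold lower, adjusted p = 0.00180, log2 fold change −0.62 with SE 0.109). Smc2, the partner ATPase, had 40.3 and 47.5 CPM in the NOD.B10 libraries, against 40.9 and 49.9 CPM in the BL/10 libraries, and the strains overlapped (adjusted p = 0.890, log2 fold change −0.048 with SE 0.146). Ncaph and Ncapg, regulatory subunits of condensin I, were not called, with log2 fold changes of −0.43 and −1.21, and Ncapg was called lower with NOD.B10 replicate 1 dropped (adjusted p = 0.00326). Whether Smc4 and Smc2 differ in their change was not tested.

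Mki67 (chromosome 7, 135689784 to 135716450), which encodes the proliferation marker Ki-67 that coats mitotic chromosomes, had 17.4 and 12.3 CPM in the NOD.B10 libraries, against 35.1 and 53.2 CPM in the BL/10 libraries. It fell 2.98-fold (adjusted p = 0.00195, log2 fold change −1.58 with SE 0.236). Top2a (chromosome 11, 98992947 to 99024199), the topoisomerase that untangles sister chromosomes and the member with the smallest p, had 12.6 and 11.7 CPM in the NOD.B10 libraries, against 33.5 and 45.3 CPM in the BL/10 libraries, a fall of 3.24-fold (adjusted p = 2.77e-05, log2 fold change −1.70 with SE 0.183). The calls of Mki67 and Top2a held in all 12 alternative settings. Hmgb2, a DNA-bending chromatin protein, had 48.5 and 18.8 CPM in the NOD.B10 libraries, against 26.2 and 33.8 CPM in the BL/10 libraries. The NOD.B10 libraries straddled those of BL/10 and Hmgb2 was not called (adjusted p = 0.915, log2 fold change 0.16 with SE 0.610). It was called lower with NOD.B10 replicate 1 dropped (log2 fold change −0.68, adjusted p = 0.0243) and higher with NOD.B10 replicate 2 dropped (0.69, adjusted p = 0.00644), so its direction rested on a single library. Foxm1, the transcription factor that activates many of these genes in G2, had 7.98 and 6.97 CPM in the NOD.B10 libraries, against 10.5 and 12.5 CPM in the BL/10 libraries, without overlap but not called (adjusted p = 0.0938, log2 fold change −0.62 with SE 0.231).

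**Figure D2:**
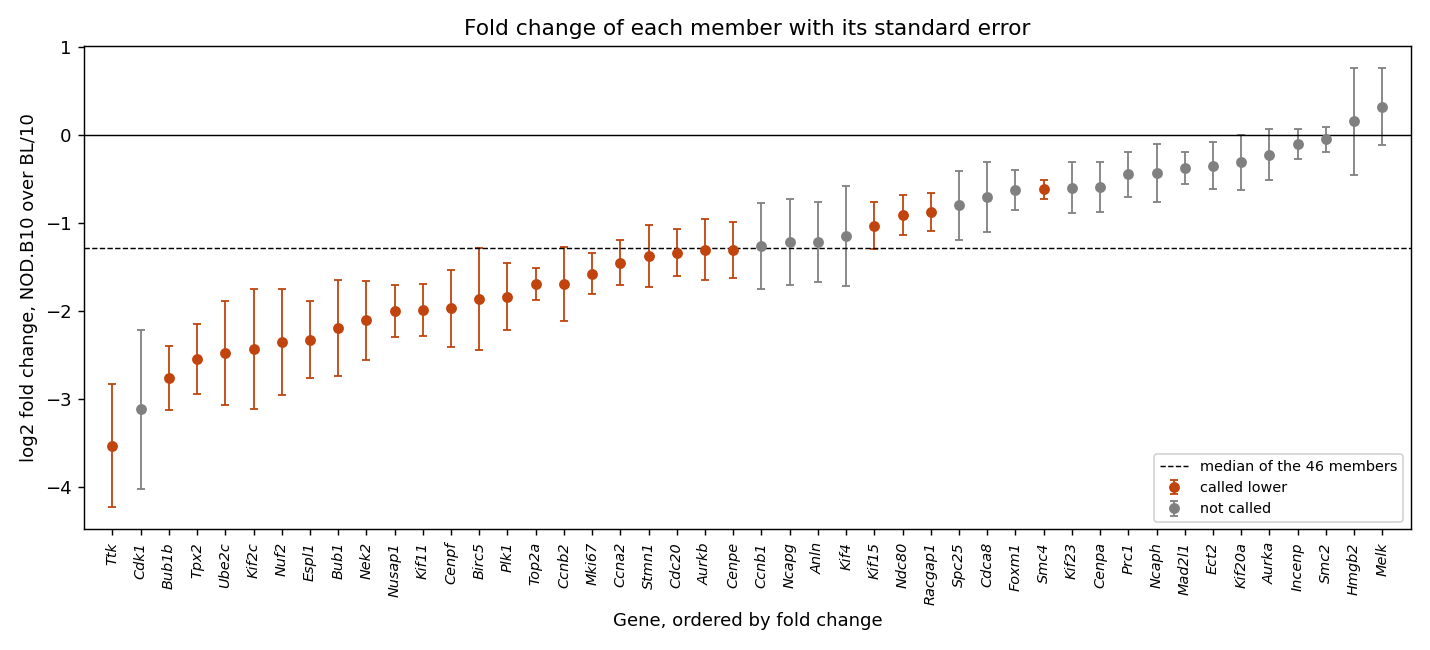
Log2 fold change (NOD.B10 over BL/10) of each member with its standard error from edgeR, ordered from lowest to highest, with called members in red and members not called in grey. Values run from −3.53 for Ttk to 0.32 for Melk, and the dashed line marks the median of −1.28.

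Fold changes spread widely within the set. Values ran from −3.53 for Ttk to 0.32 for Melk, 28 members were lower by at least 2-fold and 11 by at least 4-fold. The shares of all genes tested past these cuts were not computed, and the lower quartile over all genes tested was −0.25. The 26 called members had a median of −1.85 and the 20 others a median of −0.52, of which 18 were negative and 2 positive. Read depth was similar in both sets, with a median of 506 reads over the 4 libraries for called members and 556 for the others. Levels per length were computed as transcripts per 1000000 (TPM) from the counts and the gene lengths in the table. By mean TPM over the 4 libraries, Smc4 (128 TPM), Cenpa (44.4 TPM), Hmgb2 (33.5 TPM), Mad2l1 (27.8 TPM), Smc2 (23.8 TPM) and Incenp (19.6 TPM) stood highest, and of these 6 only Smc4 was called. Top2a had 13.8 TPM, Mki67 8.19 TPM and Cenpf, the lowest, 0.974 TPM. Across the 46 genes, mean log2 TPM and log2 fold change had a Spearman correlation of 0.53, a description over genes that share the same 4 libraries.

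**Figure D3:**
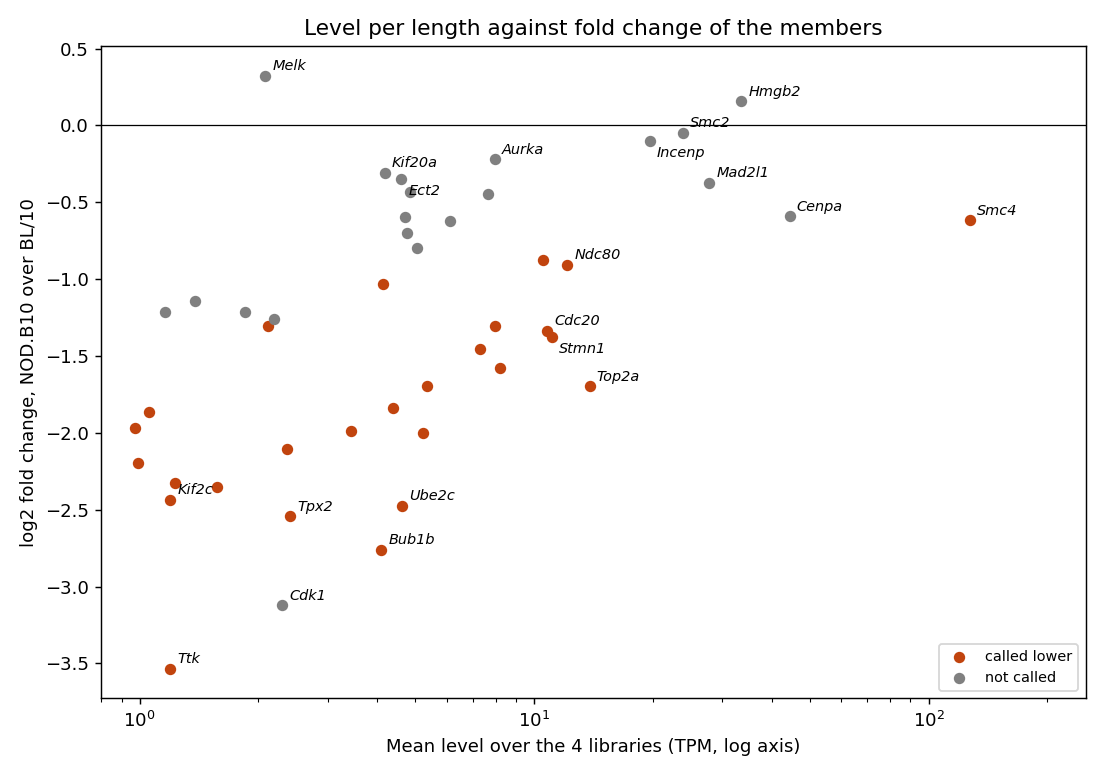
Mean level per length over the 4 libraries (TPM, log axis) against log2 fold change (NOD.B10 over BL/10), 1 point per member, with called members in red and members not called in grey. The 6 members with the highest level lie between −0.62 and 0.16, while Ttk, Cdk1, Bub1b and Tpx2 at the bottom lie below −2.5.

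Other genes of the cycle, taken from lists drawn up by function, showed the same direction in part. Of 88 other mitotic genes 86 were tested, and 16 fell (18.6%), 1 rose and 69 were not called, with a median log2 fold change of −0.49. Ncapd3, a condensin II subunit, had 10.3 and 8.85 CPM in NOD.B10, against 34.8 and 29.4 CPM in BL/10 (log2 fold change −1.75, adjusted p = 2.09e-05). Wee1, the kinase that restrains CDK1, had 5.13 and 3.84 CPM in NOD.B10, against 14.8 and 12.5 CPM in BL/10 (log2 fold change −1.62, adjusted p = 6.38e-04). Kif14, a cytokinesis kinesin, and Knl1, a kinetochore scaffold counted under its older symbol Casc5, fell as well (log2 fold change −3.27, adjusted p = 0.00340 for Kif14, and log2 fold change −1.18, adjusted p = 0.00379 for Knl1). Mad1l1, which recruits MAD2 to kinetochores, rose, with 41.3 and 33.1 CPM in NOD.B10, against 24.8 and 27.7 CPM in BL/10 (log2 fold change 0.50, adjusted p = 0.0499), a call at the edge of the threshold; in 9 of the 12 alternatives no other mitotic gene was called higher. Of 16 tested subunits and partners of the anaphase-promoting complex 0 were called (median −0.11), and of 12 cohesin genes 0 fell and Stag1 rose (log2 fold change 0.37, adjusted p = 0.0435; median 0.10). Subunits of both machines also act outside mitosis.

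Of 45 genes of G1/S and DNA replication 9 fell (20%), 1 rose and 35 were not called, with a median of −0.22. Rrm2, the ribonucleotide reductase subunit of S phase, had 4.15 and 2.47 CPM in NOD.B10, against 12.8 and 15.1 CPM in BL/10 (log2 fold change −2.09, adjusted p = 2.17e-04). Pold1, a catalytic subunit of DNA polymerase delta, and Pcna, its sliding clamp, fell more modestly (log2 fold change −0.79, adjusted p = 2.65e-04 for Pold1, and log2 fold change −0.79, adjusted p = 5.95e-04 for Pcna). Rfc3, which loads the clamp, fell too (log2 fold change −0.97, adjusted p = 0.00590). Tk1, the thymidine kinase of the salvage pathway, rose, with 28.1 and 28.4 CPM in NOD.B10, against 12.1 and 18.1 CPM in BL/10 (log2 fold change 0.91, adjusted p = 0.00766). A larger share of the mitosis and spindle genes was called lower than of the replication genes, 56.5% against 20%, and the difference between the lists was not tested. Of 28 genes listed for cell cycle exit and quiescence 4 fell (14.3%) and 1 rose (3.57%), with a median of −0.16. That list also holds genes that drive progress through G1, among them Ccnd1, Ccnd2, Ccnd3, Cdk4 and Cdk6. Over all genes tested, 8.63% were called lower and 6.55% higher. Cdkn1b, the CDK inhibitor p27, fell (log2 fold change −0.57, adjusted p = 0.0124), and so did Ccng2, Tfdp2 and Cdk6. The gene that rose was Ccnd3 (log2 fold change 0.45, adjusted p = 0.0280), which encodes cyclin D3 and is not a quiescence gene. Of 13 tested germinal centre B cell genes 0 fell, Elmo1 rose and the median was 0.15.

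**Figure D4:**
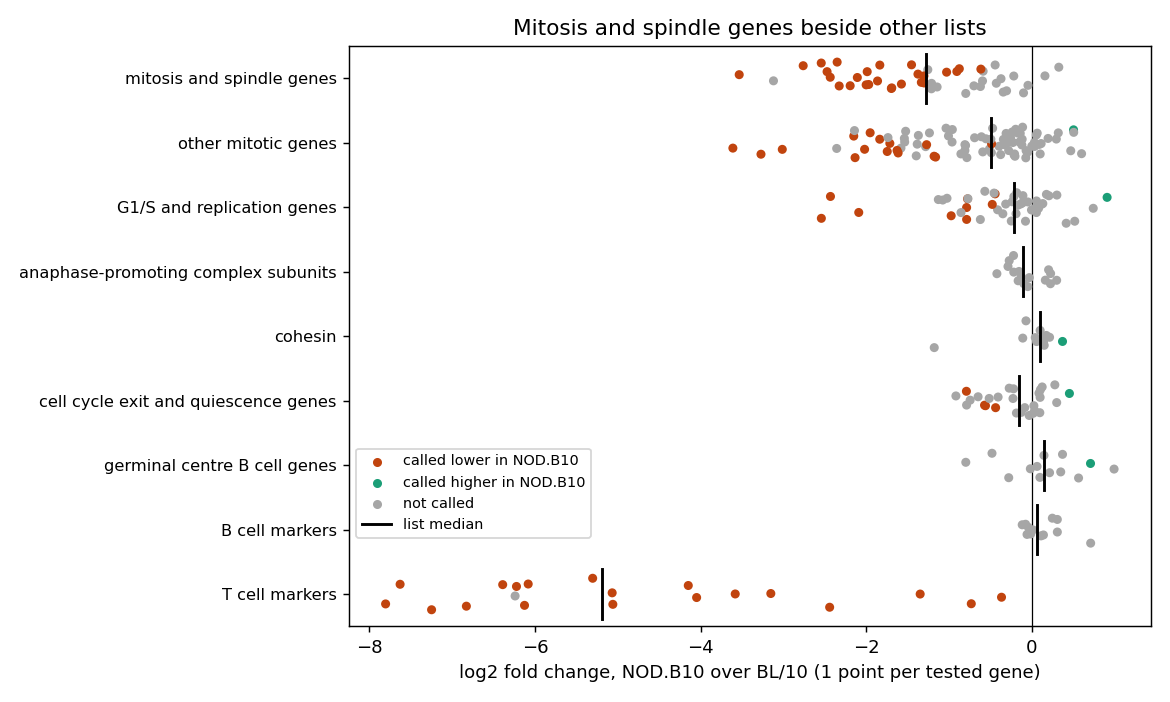
Log2 fold change (NOD.B10 over BL/10) of every tested gene in the mitosis and spindle set and in 8 other lists, 1 point per gene, coloured by its call, with a black bar at each list's median. The medians are −1.28 for mitosis and spindle genes, −0.49 for other mitotic genes, −0.22 for replication genes, 0.06 for B cell markers and −5.18 for T cell markers.

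The members lie on 17 chromosomes. Because neither the strand setting nor the treatment of reads with several alignments was given in the sources used here, some counts may include reads of other genes. In the GENCODE annotation of GRCm38, exons of 14 members overlapped exons of another gene, and 6 of them shared over 10% of their exon bases with a gene on the opposite strand. These were Kif20a (29.3%, with Cdc23), Ube2c (22.8%, with Tnnc2), Kif4 (15.1%, with Pdzd11), Ncapg (13.4%, with Lcorl), Ccna2 (12.5%, with Exosc9) and Prc1 (11.1%, with Rccd1). Ccnb1, Ccnb2, Kif4 and Stmn1 also have related pseudogenes in RefSeq.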

How the data were processed

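B cell RNA from 4 libraries was measured by RNA sequencing. Raw read counts for each gene symbol were deposited by the authors in a table that also gives gene lengths in bases. Per the submitters' processing notes, HISAT2 2.1.0, SAMtools 1.3, Subread 1.6.5 and featureCounts were used with build mm10; the gene annotation was not given in the sources used here. Columns were matched to samples by library name. Counts were tested across all genes with edgeR 4.0.16 in R 4.3.3 (glmQLFit with robust dispersion, glmQLFTest, two-sided, TMM, filterByExpr at min.count 10 and min.total.count 15), with Benjamini-Hochberg adjustment over 13075 genes. A called gene has an adjusted p under 0.05. Every adjusted p comes from this test unless another setting is named. The standard error (SE) is the unshrunken log2 fold change, taken as positive, divided by the root of the test's F value. Alternatives used DESeq2 1.42.0, limma 3.58.1, other normalisation and filters, and fewer libraries. The procedure was tested on simulated counts. Replicate libraries differed by more than sampling noise (chi-square per degree of freedom 18.7 in NOD.B10 and 43.1 in BL/10). The members and lists were chosen with earlier results of these data known. Every member is named, with values per library for the 2 of each role with the highest mean CPM and for the called members with extreme fold changes. From each other list of cell cycle genes, up to 4 called genes with the smallest adjusted p were eligible in each direction. Values per library for Ccnb1, Cdk1, Melk, Ube2c, Kif4 and Top2a were added after they were seen.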

Additional observations from a re-analysis of the deposited data

How the results depend on the processing

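Alternatives that kept all 4 libraries called 25 to 28 members lower, against 26. They called 7.97% to 8.78% of all genes tested lower, against 8.63%. Across all 12 alternatives, the median log2 fold change of the members stayed between −1.40 and −1.15. That median was −1.40 without NOD.B10 replicate 1, −1.15 without NOD.B10 replicate 2 and −1.30 without BL/10 replicate 1. Each fit that leaves out 1 library leaves 1 strain with a single library, assumed to vary like the other strain. All 26 called members were negative in every alternative, and 14 kept their call in all 12, namely Ccna2, Plk1, Nek2, Bub1b, Ttk, Ndc80, Kif11, Tpx2, Nusap1, Cdc20, Espl1, Smc4, Mki67 and Top2a. Of 552 recomputed gene values, 23 lost a call, 16 gained one and 6 changed sign, Hmgb2 with NOD.B10 replicate 1 dropped being both a gain and a change of sign. Those 6 belong to Hmgb2, at −0.036 with limma-voom and between −0.68 and 0.69 with 1 library left out, to Smc2, between −0.18 and 0.092, and to Kif20a, between −0.72 and 0.025. The cause was not tested. Among other mitotic genes, the number called higher was 1 (Mad1l1) as reported, 0 with RLE or upper-quartile factors, the stricter filter (1 CPM in at least 2 libraries), DESeq2, limma-voom, non-robust dispersion and the replicate block, and 0 to 2 with 1 library left out. Without the first NOD.B10 library, 67.7% of all calls were lower, against 56.8%. Replicate numbers showed no sign of pairing the libraries (correlation of same-numbered deviations −0.0165 over 13075 genes), which cannot exclude pairing. With a replicate block 27 members were called lower, Cdk1 and Cenpa gained and Birc5 lost. Members with under 100 reads in all of NOD.B10 carry wide errors, so a small difference in them would not be detectable at this depth.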
